A study of Mus musculus with 8 samples.

Results

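The collagen genes are the genes whose symbol has the form Col, a type number, the letter a and a chain number. They were found on the array through the transcript accession of each probe and a RefSeq gene table, which gave 67 probes for 44 collagen genes among 56605 probes and 22911 named genes. The gene table itself held 44 such symbols, so every collagen gene in it had a probe. Of these, 45 probes for 36 genes were tested, among 37085 probes and 16093 named genes tested, because a probe was kept if, in 1 genotype or both, no measured array failed to stand well above background. In what follows a gene is given by the probe of highest mean signal, and another probe is named where it differed.

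Retinal gene expression was compared between aged mice, 46 to 55 weeks old by the labels, with 4 samples of mice homozygous for a knockout of Mrp4 and 4 of wild-type (WT) mice. Mrp4 is the older name of Abcc4, a membrane pump that exports organic anions and cyclic nucleotides from cells. The methods give a C57BL/6J background for the knockout and name no promoter or Cre, and the labels name no treatment. They name 3 mice as the source of the tissue and 4 samples per genotype, so it is unclear whether the samples are separate animals, and a p-value here measures the spread between arrays. Total RNA was labelled with Cy3 and each sample was hybridized to 1 one-color Agilent array, and values are given as the log2 of the normalized signal, a scale on which 1 unit is a doubling.

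The arrays are numbered as in their labels, null 1 to null 4 and WT 1 to WT 4. Abcc4, the targeted gene, was higher on the Mrp4-null-labelled arrays. It read 10.84, 10.71, 10.64 and 10.80 on them and 6.62, 7.13, 6.54 and 7.02 on the WT arrays, a log2 fold change of 3.92 (SE 0.14, limma, adjusted p = 1.36e-05). This goes against the labels of both groups. An exchange of the labels would turn every direction given here, the place of this probe relative to the deleted part is not given, and neither was tested. WT is therefore also a label here, and every direction follows the labels as deposited. The slide carried all 8 arrays, 1 genotype per row, so slide row and genotype cannot be told apart. The 75th percentile of the signal ran from 678 to 1082, lowest on null 2 and WT 3, and no spot was saturated. Xist was well above background on 4 Mrp4-null-labelled arrays and 2 WT arrays, and Y-linked genes on none of the former and 3 of the latter, so sex-linked signals also moved with genotype. WT 2 carried both signals, and the methods leave unclear whether a sample pooled several mice. The 5 genes of Muller glia, the radial glia of the retina, had a mean of 12.72 to 12.86 and 12.85 to 12.92 in the 2 groups, as markers of the labelled tissue. Lens genes were also above background, though Mip was so on only 2 of the 4 Mrp4-null-labelled arrays. The mean over 10 lens genes was 6.35 to 9.18 on the Mrp4-null-labelled arrays and 7.87 to 10.46 on the WT arrays. In whole tissue, fewer cells of a type and less RNA per cell cannot be told apart.

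Collagens are proteins of the extracellular matrix in which chains wind into a triple helix. Type IV collagen does not form fibres but a sheet-like network, the scaffold of basement membranes, and in the retina these lie around every capillary, at the inner limiting membrane and in Bruch's membrane under the pigment epithelium. Types I, III and V build the fibres of ordinary connective tissue, which the neural retina has little of, whereas type II with types IX and XI builds the fibres of the vitreous and type IX is also made by the ciliary epithelium.

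The smallest adjusted p-values among the collagens were those of Col4a1 and Col4a2, the chains that form the main type IV network of vascular basement membranes. The genes lie head to head on chromosome 8 and are read in opposite directions from annotated starts 21 bases apart. The 21 bases are not a gap: each start lies just inside the other gene, so the annotated first bases of the 2 genes overlap. The 2 promoter windows are shown to describe this arrangement, which no value here measures, each from 250 bases before to 50 bases after the start and 300 bases long, as given by RefSeq on GRCm38.p6, 5′ to 3′ along the strand of the gene. The window of Col4a1 is chr8:11312777-11313076 on the minus strand and that of Col4a2 is chr8:11312555-11312854 on the plus strand. Capitals mark the 78 bases that both windows hold, which read as reverse complements of each other.
Col4a1: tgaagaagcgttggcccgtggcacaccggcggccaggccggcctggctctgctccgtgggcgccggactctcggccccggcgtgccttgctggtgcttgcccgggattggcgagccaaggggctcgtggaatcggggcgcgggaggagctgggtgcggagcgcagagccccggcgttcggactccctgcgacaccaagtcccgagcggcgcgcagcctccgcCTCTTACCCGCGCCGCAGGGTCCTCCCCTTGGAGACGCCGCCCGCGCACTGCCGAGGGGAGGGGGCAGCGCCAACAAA
Col4a2: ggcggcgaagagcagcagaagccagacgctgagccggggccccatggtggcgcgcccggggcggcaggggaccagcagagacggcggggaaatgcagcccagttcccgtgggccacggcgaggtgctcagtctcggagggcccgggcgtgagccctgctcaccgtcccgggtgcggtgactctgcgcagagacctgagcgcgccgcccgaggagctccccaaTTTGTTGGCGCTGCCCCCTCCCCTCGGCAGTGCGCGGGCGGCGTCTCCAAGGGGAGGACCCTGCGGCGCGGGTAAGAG
The letters CCAAT, on either strand, occurred 1 time in each window and not wholly within the shared bases, which the match in the Col4a2 window reaches by its last base, and occurred in 37.4% of 32851 promoter windows of the genome and in 34.2% of 38 windows of collagen genes, which covered 35 of the 44 genes. The letters GGGCGG, the core of a GC box, occurred 1 time in the Col4a1 window and 3 times in the Col4a2 window, of which 1 lay in the shared bases, and in 35.7% of all windows and 60.5% of collagen windows. The letters TATAAA were in neither window, and in 13.6% and 13.2% of windows.

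Both chains were higher on all 4 Mrp4-null-labelled arrays than on any WT array. Col4a1 read 9.52, 9.45, 9.79 and 9.47 on the Mrp4-null-labelled arrays and 8.85, 8.85, 8.79 and 8.66 on the WT arrays. Col4a2, its partner in the same triple helix, read 8.80, 8.87, 8.90 and 8.69 against 8.12, 8.25, 8.15 and 8.11. The groups did not overlap in either gene, and the gap between them was wider than the range within either group. The log2 fold change was 0.77 for Col4a1 (SE 0.10, 95% interval 0.54 to 1.00, limma, adjusted p = 0.0117) and 0.66 for Col4a2 (SE 0.08, interval 0.48 to 0.84, limma, adjusted p = 0.00833), or 1.71-fold and 1.58-fold. For groups of 4 that do not overlap, a two-sided exact permutation test over the 70 splits of the arrays can only give its smallest p, 0.0286, so it adds nothing to that observation.

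These were the 2 collagen genes called changed by limma, where a call needed a change of 1.5-fold or more with p under 0.05 after adjustment over all probes. They are 5.56% of the 36 collagen genes tested, and the same rule called 0.572% of all genes and 0.545% of all probes. Leaving out 1 array at a time kept the Col4a1 log2 fold change between 0.70 and 0.81 and that of Col4a2 between 0.63 and 0.70. The call for Col4a1 was lost without WT 3 (limma, adjusted p = 0.0501) or WT 4 (0.0581), and that for Col4a2 was kept with each array left out. With normexp background correction Col4a2 was at 0.58, under the fold threshold, and was not called. By the local pooled error (LPE) test of the study's methods both had an unadjusted p past the threshold, 0.00177 and 0.00227, and after adjustment neither did, at 0.199 and 0.237, whereas Col19a1 did, as given with its values. WT 1, the WT array with Xist and no Y-linked signal, read 8.85 for Col4a1, as did WT 2, and 8.12 for Col4a2, and the part of sex in either gene was not tested.

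**Figure D1:**
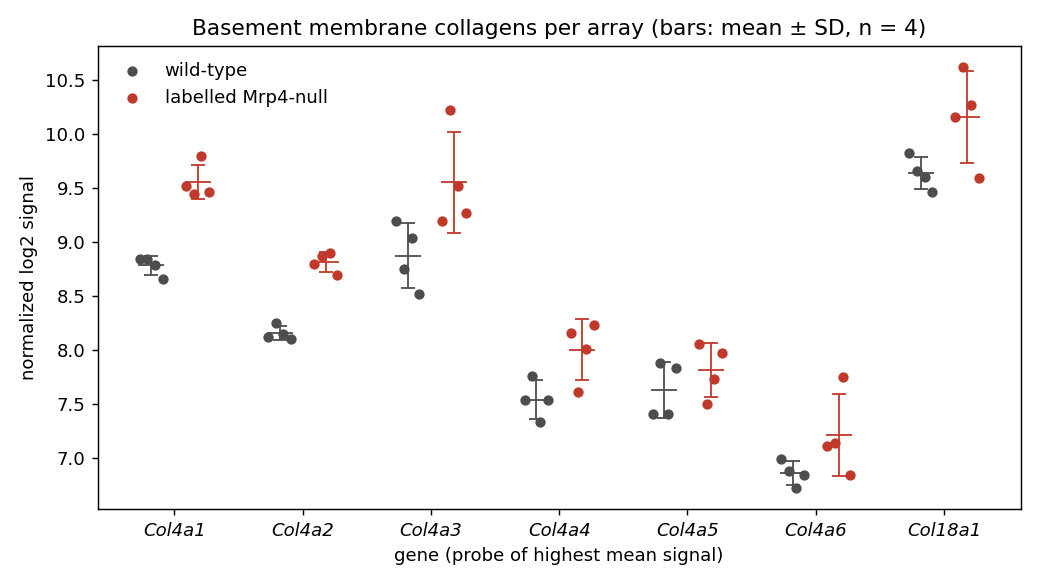
Normalized log2 signal (vertical axis) of the 7 basement membrane collagens tested, with 1 point per array, WT arrays in grey and arrays labelled Mrp4-null in red, and bars for the mean ± SD (n = 4). Col4a1 and Col4a2 are the genes in which the red points all lie above the grey points, and in Col4a3 and Col18a1 single red points, 10.23 and 10.62 on null 2, stand above the others.

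No gene close to the pair was called with it by limma among the 20 nearest genes tested, 10 on each side in gene order. Over all genes, 3.6% had an unadjusted p under 0.05 with a higher mean and 3% with a lower mean, and among these 20 there were 3, Shcbp1 at a log2 fold change of 0.97 (SE 0.21), Rab20 at -0.86 (SE 0.28) and Cars2 at -0.24 (SE 0.10). Rab20 is the nearest gene tested beyond Col4a2, and Irs2, the nearest beyond Col4a1, was at 0.17 (SE 0.25). The nearest other gene called was Timm44, 15 tested genes away, at -1.06. Calls were more frequent on this chromosome than over the genome, with 29 of 837 tested genes on chromosome 8 (3.46%), 17 of 558 on chromosome 14, which carries Abcc4, and 22 of 1015 on chromosome 4, of 92 called in all. The 27 other genes called on chromosome 8 were 9 higher and 18 lower. Of them, 6 were among the 42 tested genes before the pair in gene order and 21 among the 793 after it. Within 100 tested genes of the pair lay 11 of the 27. The part of chromosomal position in the result for Col4a1 and Col4a2 was not tested.

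**Figure D2:**
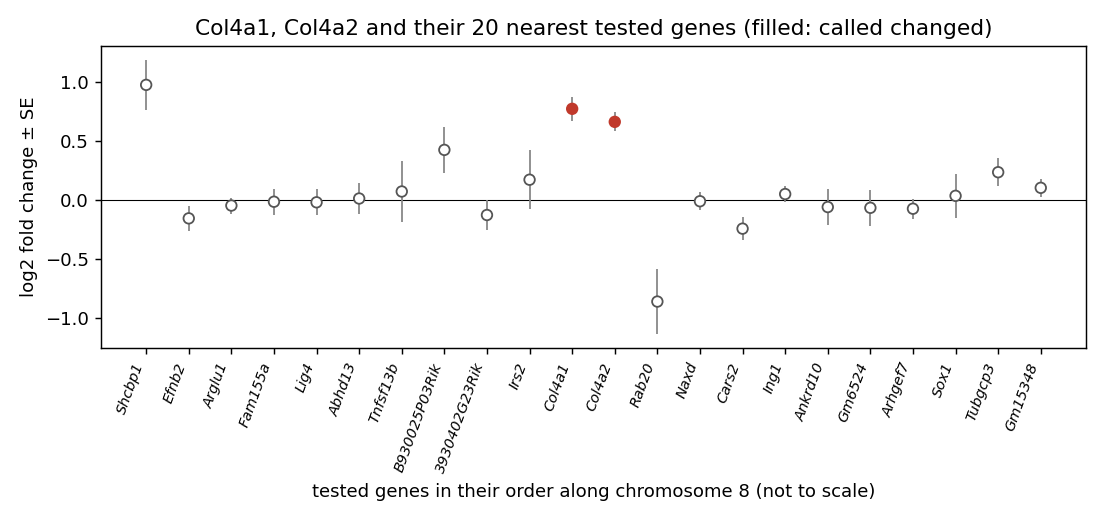
Log2 fold change ± SE (vertical axis; arrays labelled Mrp4-null over WT) of Col4a1, Col4a2 and the 10 nearest tested genes on each side, in gene order along chromosome 8 (horizontal axis, not to scale). Filled points were called changed, and between Irs2 at 0.17 and Rab20 at -0.86 the pair stands at 0.77 and 0.66.

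Levels of vessel cell markers are set beside these values because type IV collagen lies around every capillary. It also lies at the inner limiting membrane and in Bruch's membrane. Markers of glia, pigment epithelium, ciliary body and lens are given in other paragraphs. The 8 endothelial genes had a mean of 7.86 to 8.27 on the Mrp4-null-labelled arrays and 8.13 to 8.40 on the WT arrays, and their median log2 fold change was -0.12, with 2 of 8 above 0. Kdr, the main receptor for VEGF, was at -0.37 (SE 0.14) and Cldn5, a tight junction protein, at -0.22 (SE 0.09), both with an unadjusted p under 0.05 in limma, beside 3% of all genes with a lower mean, and neither called. The 8 pericyte and smooth muscle genes tested had means of 8.20 to 8.45 and 8.23 to 8.31, and a median of 0.04. The ranges of both lists overlapped between the genotypes, and the part of vessel cells in the values of Col4a1 and Col4a2 was not tested.

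The other type IV chains also lie as head-to-head pairs and were higher on average without a call. Col4a3 and Col4a4, which with Col4a5 make the type IV network known from the kidney filter and from Bruch's membrane, are neighbours on chromosome 1. Col4a3 read 9.19, 10.23, 9.52 and 9.27 on the Mrp4-null-labelled arrays and 9.19, 8.75, 9.04 and 8.52 on the WT arrays, a log2 fold change of 0.68 (SE 0.24, limma, adjusted p = 0.58). Col4a4 read 8.16, 7.61, 8.02 and 8.24 against 7.54, 7.76, 7.33 and 7.54, a log2 fold change of 0.46 (SE 0.15, limma, adjusted p = 0.505). In both genes the groups overlapped by 1 array, and null 2 was the highest array for Col4a3 and the lowest of its group for Col4a4.

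On chromosome X, Col4a5 and Col4a6 had log2 fold changes of 0.18 (SE 0.16) and 0.35 (SE 0.18). Col4a6, a chain of smooth muscle and epithelial basement membranes, read 7.12, 7.14, 7.75 and 6.85 on the Mrp4-null-labelled arrays and 6.99, 6.88, 6.72 and 6.85 on the WT arrays, with null 3 above the rest. A second probe of Col4a5 gave 0.12 (SE 0.38). Neither gene had an unadjusted p under 0.05.

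Col18a1 encodes a basement membrane collagen whose C-terminal fragment is endostatin, an inhibitor of vessel growth. It read 10.16, 10.62, 10.26 and 9.59 on the Mrp4-null-labelled arrays and 9.82, 9.66, 9.61 and 9.47 on the WT arrays. Here null 4 lay among the WT arrays, and the log2 fold change was 0.52 (SE 0.20, limma, adjusted p = 0.646). Neither probe of Col15a1, its closest relative, stood well above background on any array.

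The basement membrane class, as chosen here, holds the type IV chains with Col15a1 and Col18a1 and leaves out Col7a1, Col17a1 and Col19a1, which are also found at basement membranes and are given in their own classes. All 7 members of the class that were tested had a log2 fold change above 0, beside 46.3% of all genes, with a median of 0.52 beside -0.01 over all genes tested. The mean over the 7 genes was 8.72, 8.78, 8.85 and 8.58 on the Mrp4-null-labelled arrays and 8.28, 8.29, 8.15 and 8.14 on the WT arrays. The 2 ranges did not overlap, and with 1 array left out the median was between 0.46, without null 2, and 0.70, without null 4. Of the 7, 2 were called, beside 0.572% of all genes, and 5 had an unadjusted p under 0.05 with a higher mean, beside 3.6% of all genes.

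The partners of these collagens in the basement membrane had a median near 0. Of 15 laminins, nidogens and heparan sulphate proteoglycans listed, 13 were tested, none was called by limma or by the adjusted LPE test, and the median log2 fold change was -0.02 with 5 above 0. Lama4, the laminin chain of endothelial basement membranes, was at 0.39 (SE 0.11) and Lamb1 at -0.21 (SE 0.08), the 2 members with an unadjusted p under 0.05, beside 3.6% of all genes with a higher and 3% with a lower mean. Nid1, the linker between laminin and type IV collagen, was at -0.30 (SE 0.35), Hspg2, the proteoglycan perlecan, at -0.06 (SE 0.20) and Lamc1 at -0.09 (SE 0.12).

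Among the fibrillar collagens of connective tissue, 8 of 9 genes were tested and none was called by limma or by the adjusted LPE test. Type I collagen is a helix of Col1a1 and Col1a2 chains, and its 2 genes gave unlike values. Col1a2 read 7.47, 7.99, 7.92 and 7.12 on the Mrp4-null-labelled arrays and 6.98, 6.66, 7.12 and 7.11 on the WT arrays. The groups did not overlap, but null 4 and WT 3 differed by less than the rounding used here, and the log2 fold change was 0.66 (SE 0.20, limma, adjusted p = 0.428). Col1a1 had log2 fold changes of -0.06 (SE 0.19) and -0.10 (SE 0.21) by its 2 probes. No array showed Col3a1, the collagen of elastic connective tissue and vessel walls, well above background.

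Col11a2 and Col5a3 also had an unadjusted p under 0.05. Col11a2, a chain of type XI collagen best known from cartilage and classed here apart from its partner Col11a1, read 6.92, 6.72, 6.85 and 6.70 on the Mrp4-null-labelled arrays and 6.33, 6.54, 6.49 and 6.49 on the WT arrays. Its groups did not overlap and its log2 fold change was 0.33 (SE 0.09, limma, adjusted p = 0.256), under the fold threshold. Col5a3, a chain of type V collagen, read 7.39, 7.38, 7.90 and 6.94 against 7.03, 6.95, 6.85 and 6.94, with null 4 among the WT arrays and a log2 fold change of 0.46 (SE 0.18, limma, adjusted p = 0.668).

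Col5a1 and Col5a2, the type V chains that start fibre assembly, had log2 fold changes of 0.13 (SE 0.12) and 0.03 (SE 0.13), and the Col5a2 probe was well above background on 2 of the 4 WT arrays. Col24a1 and Col27a1 stood at -0.01 (SE 0.41) and 0.00 (SE 0.25). The class median was 0.08, with 5 of 8 genes above 0, and it was 0.27 without null 2 and 0.027 without null 1. Of the 7 fibroblast markers, 5 were tested with a mean of 7.41 to 7.65 and 7.21 to 7.52, and Lum and Dpt, defining genes of that list, were not retained. Ogn, a small proteoglycan of connective tissue, was at 0.74 (SE 0.30) and Dcn, the proteoglycan decorin that binds collagen fibres, at -0.23 (SE 0.16). The part of connective tissue cells in the values of Col1a2 was not tested.

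The 5 genes classed as collagens of the vitreous and ciliary epithelium, Col2a1, Col9a1, Col9a2, Col9a3 and Col11a1, were all tested, and none was called by limma or LPE or had an unadjusted p under 0.05. Col2a1, the main chain of vitreous fibres, read 9.56, 9.57, 9.43 and 9.13 on the Mrp4-null-labelled arrays and 9.49, 9.46, 9.53 and 9.50 on the WT arrays, a log2 fold change of -0.07 (SE 0.11, 95% interval -0.31 to 0.17). Col9a1, a type IX chain that coats those fibres, read 11.10, 11.05, 11.06 and 11.08 against 10.92, 11.14, 11.10 and 11.10, a log2 fold change of 0.01 (SE 0.08, interval -0.17 to 0.18). Both intervals leave out a 1.5-fold change in either direction. Col9a2 stood at 0.10 (SE 0.11), and Col9a3 and Col11a1 stood at 0.29 (SE 0.16) and 0.25 (SE 0.14), with intervals that reach 0.65 and 0.57. A second probe of Col11a1 gave 0.25 (SE 0.11).

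Opticin (Optc), a vitreous protein secreted by the ciliary epithelium, had a larger log2 fold change than each of the 5 vitreous or ciliary collagens. It read 10.2, 10.5, 10.2 and 9.2 on the Mrp4-null-labelled arrays and 9.0, 8.8, 7.8 and 8.4 on the WT arrays, a log2 fold change of 1.53 (SE 0.34, limma, adjusted p = 0.158). The groups did not overlap, and Optc was called by the adjusted LPE test. Wfdc1, another gene of the ciliary list, was at 0.38 (SE 0.14), Msx1 at 0.02 (SE 0.14) and Aqp1 at -0.08 (SE 0.07). The mean over the 4 ciliary genes was 9.24 to 9.81 on the Mrp4-null-labelled arrays and 8.90 to 9.29 on the WT arrays, and its part in the collagen values was not tested.

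Type VI collagen forms beaded microfibrils between basement membranes and the surrounding matrix, from Col6a1, Col6a2 and a longer chain. Col6a1 and Col6a2 had log2 fold changes of 0.02 (SE 0.12) and 0.08 (SE 0.14). Of the longer chains, Col6a4 alone was tested, and it read 7.09, 6.90, 6.94 and 6.73 on the Mrp4-null-labelled arrays and 6.68, 6.61, 6.30 and 6.69 on the WT arrays. The groups did not overlap, with null 4 just above WT 4, and the log2 fold change was 0.35 (SE 0.12, limma, adjusted p = 0.515). Col6a3, the usual partner of Col6a1 and Col6a2, was well above background on 3 arrays of each genotype by its better probe and was not tested.

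Among the fibril-associated collagens, which bind to the surface of fibres, Col19a1 had the same log2 fold change as Col4a1. Col19a1, a basement membrane zone collagen made by subsets of neurons, read 9.87, 8.83, 9.21 and 9.80 on the Mrp4-null-labelled arrays and 8.65, 8.98, 8.30 and 8.70 on the WT arrays. Null 2 lay below WT 2, so the groups overlapped, and the log2 fold change was 0.77 (SE 0.24, limma, adjusted p = 0.469). By the LPE test, which pools the variance of probes with a like signal, Col19a1 was the 1 collagen gene called after adjustment, with an adjusted p of 0.0234, beside 0.684% of all genes. Its second probe gave 0.87 (SE 0.46), with the same order of arrays among the null arrays and no call in either test after adjustment. Col9a1, the next collagen gene to Col19a1 on chromosome 1, stood at 0.01.

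Of the others in the class, Col16a1 had a log2 fold change of 0.22 (SE 0.10) and an unadjusted p of 0.0484, and Col20a1, Col12a1 and Col22a1 stood at 0.19 (SE 0.10), 0.08 (SE 0.26) and 0.01 (SE 0.09). A second probe of Col22a1, well above background on 2 of the 4 WT arrays, gave 0.26 (SE 0.26). All 5 genes tested were above 0, with a median of 0.19. Col14a1 was well above background on 2 arrays, both labelled Mrp4-null, and was not tested.

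The transmembrane collagens, which sit in the cell surface and shed their outer part, held Col17a1, the 1 collagen gene with a fitted fold change of at least 1.5 towards WT. Col17a1, the collagen of hemidesmosomes, read 5.64, 4.37, 4.85 and 5.87 on the Mrp4-null-labelled arrays and 5.33, 5.97, 5.76 and 6.48 on the WT arrays. The groups overlapped, the log2 fold change was -0.70 (SE 0.36, limma, adjusted p = 0.885), and a second probe gave -0.24 (SE 0.16). The value was under 1.5-fold without null 2, at -0.43, without WT 4, at -0.50, and with normexp, at -0.28. Col13a1, Col23a1 and Col25a1, the last a neuronal collagen needed for the innervation of muscle, stood at 0.04 (SE 0.16), 0.04 (SE 0.16) and 0.01 (SE 0.11).

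In the remaining class, Col7a1, the chain of anchoring fibrils, read 11.93, 12.15, 11.99 and 11.70 on the Mrp4-null-labelled arrays and 11.79, 11.57, 11.70 and 11.61 on the WT arrays, a log2 fold change of 0.28 (SE 0.11) with an unadjusted p of 0.0329 in limma. Null 4 lay among the WT arrays. Col26a1 had a log2 fold change of 0.30 (SE 0.12, limma, unadjusted p = 0.0327), with 0.10 (SE 0.15) by a second probe. Col8a1 and Col8a2, the chains of a hexagonal network known from corneal endothelium and vessel walls, stood at 0.02 (SE 0.15) and 0.00 (SE 0.24).

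In all, 8 collagen genes had no retained probe. Col10a1, Col15a1, Col28a1, Col3a1 and Col6a6 were well above background on 0 arrays, Col6a5 on 1 array labelled Mrp4-null, Col14a1 on 2, and Col6a3 on 6. No fold is given for them, since neither genotype was measured above background on every array.

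**Figure D3:**
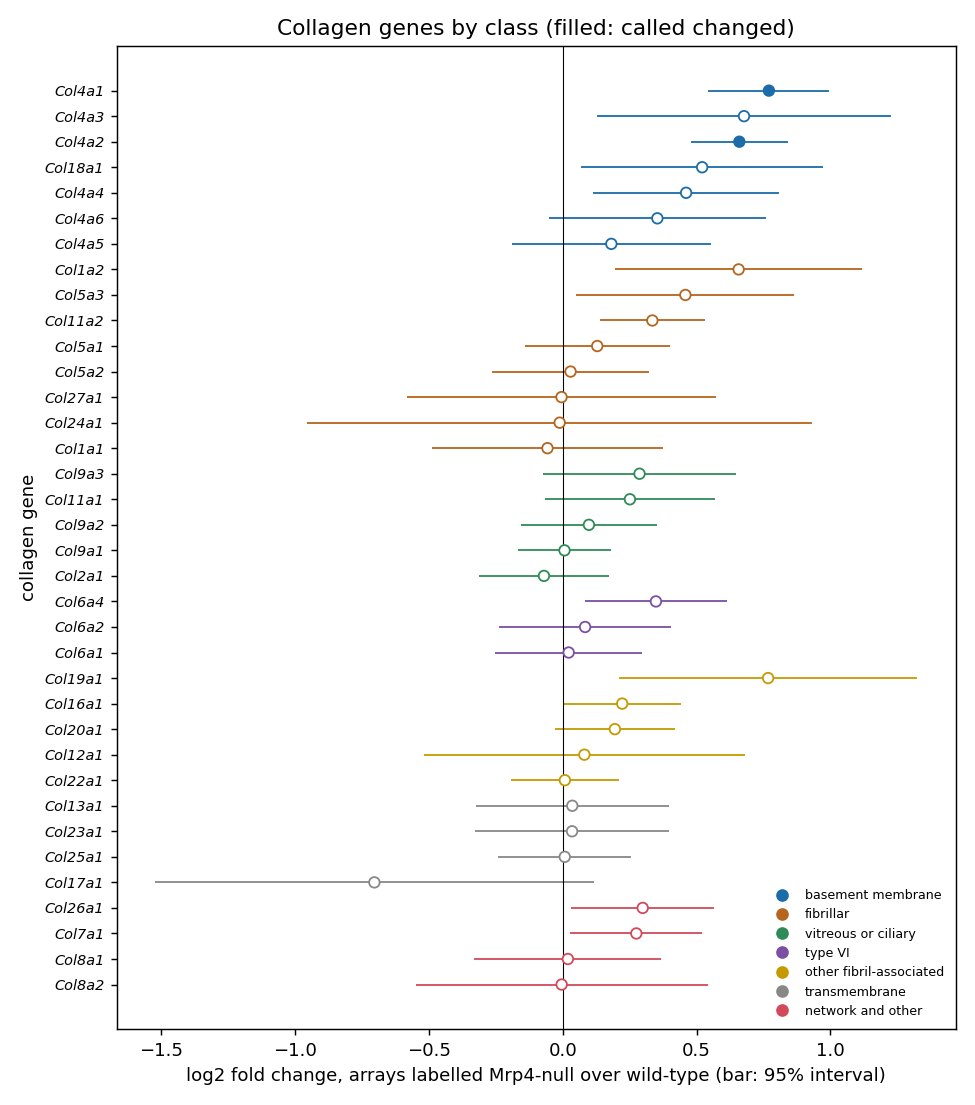
Log2 fold change (horizontal axis; arrays labelled Mrp4-null over WT) with its 95% interval for the 36 collagen genes tested, by class and in order of size within a class. The filled points, Col4a1 and Col4a2, were called changed, and in the basement membrane class all 7 points lie right of 0, whereas the vitreous or ciliary points lie between -0.07 and 0.29.

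Over all 36 collagen genes tested, 30 had a log2 fold change above 0 (83.3%), beside 46.3% of all genes tested, and the median was 0.16 beside -0.01. Of the 36, 13 had an unadjusted p under 0.05 with a higher mean on the Mrp4-null-labelled arrays (36.1%), beside 3.6% of all genes, and none with a lower mean, beside 3% of all genes. The 13 were Col4a1, Col4a2, Col4a3, Col4a4, Col18a1, Col1a2, Col5a3, Col11a2, Col16a1, Col19a1, Col6a4, Col7a1 and Col26a1. The count was 8 without null 1, 8 without null 3, 8 without WT 3 and 7 without WT 4, and the median was 0.10 without null 1. In 5 genes (13.9%), Col4a1, Col4a2, Col1a2, Col11a2 and Col6a4, all arrays labelled Mrp4-null lay above all WT arrays, beside 2.72% of all genes, and in none did all lie below. By the LPE test with no adjustment and the same fold threshold, 6 genes passed (16.7%), beside 1.57% of all genes: Col4a1, Col4a2, Col4a3, Col1a2 and Col19a1 higher and Col17a1 lower.

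The arrays took unequal parts in these values. Null 2 was the highest of the 8 arrays for 12 genes and null 1 for 11, and a WT array was the highest for 6. WT 3 was the lowest for 10 genes and WT 4 for 8, whereas null 2 was the lowest for 5. The mean over the 36 genes was 7.90 to 8.07 on the Mrp4-null-labelled arrays and 7.65 to 7.85 on the WT arrays. The median SD between replicates of a collagen gene was 0.209 on the Mrp4-null-labelled arrays and 0.182 on the WT arrays, beside 0.170 and 0.140 over all genes tested.

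**Figure D4:**
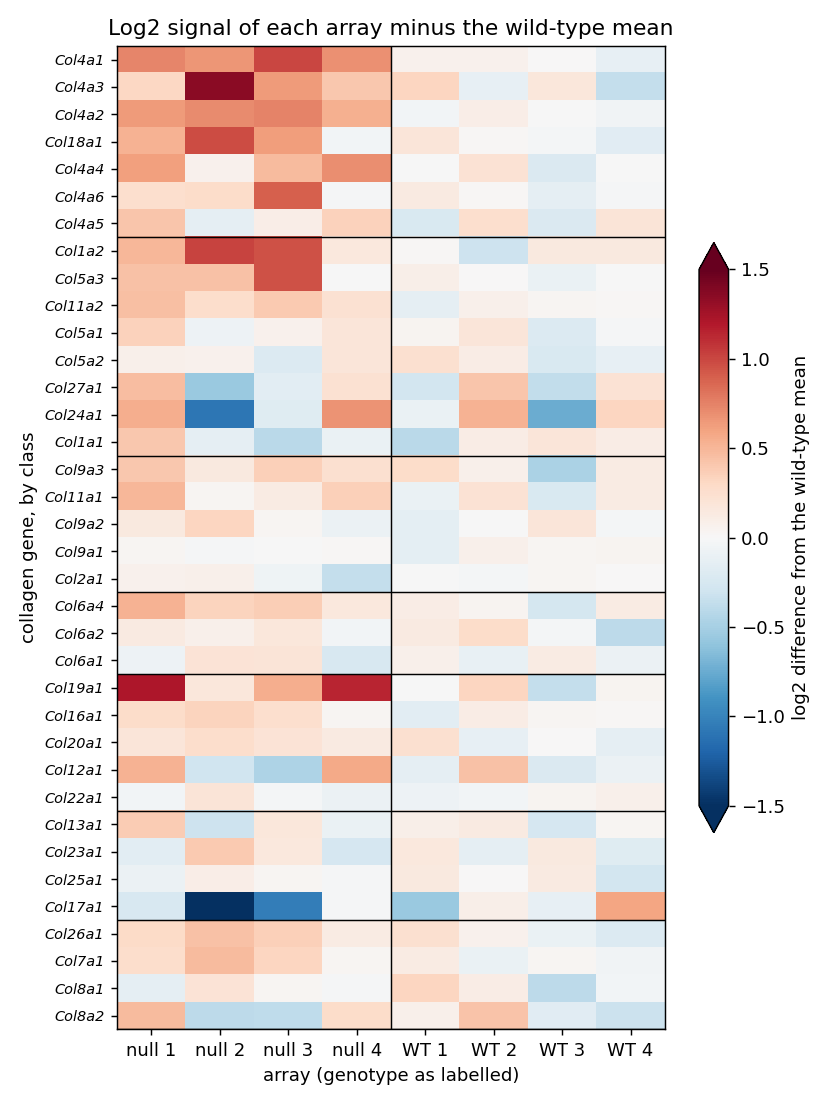
Normalized log2 signal of each array (columns) minus the mean of the WT arrays for the 36 collagen genes tested (rows, by class), with red above and blue below the WT mean. Col4a1 and Col4a2 are red on all 4 arrays labelled Mrp4-null, Col19a1 is strongest on null 1 and null 4, and Col1a2 on null 2 and null 3.

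Genes that make and process collagen protein lay on both sides of 0. Of 30 enzymes and chaperones of collagen synthesis, processing and crosslinking, 25 were tested, none was called by limma or by the adjusted LPE test, and the log2 fold change was above 0 in 11 and below in 14, with a median of -0.01. Pcolce, which enhances the removal of the C-terminal propeptide of fibrillar collagens, read 9.91, 10.06, 10.81 and 9.72 on the Mrp4-null-labelled arrays and 9.68, 9.58, 9.46 and 9.31 on the WT arrays, a log2 fold change of 0.62 (SE 0.22, limma, adjusted p = 0.571). Its relative Pcolce2 was at 0.30 (SE 0.08) and P3h3, a prolyl 3-hydroxylase, at 0.46 (SE 0.14). Loxl2 and Pxdn, which crosslink type IV collagen, were at -0.38 (SE 0.14) and -0.24 (SE 0.09). These 5, 3 with a higher and 2 with a lower mean, were the members with an unadjusted p under 0.05, beside 3.6% and 3% of all genes. Serpinh1, the collagen chaperone HSP47, was at -0.07 (SE 0.15) and P4ha1, a prolyl 4-hydroxylase, at -0.16 (SE 0.32).

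Of 9 collagen receptors, 7 were tested, with a median of 0.18 and no call by limma or by the adjusted LPE test. Ddr2, a receptor kinase for fibrillar collagen, was at 0.31 (SE 0.11) and Itga10, an integrin chain, at 0.29 (SE 0.10), the 2 with an unadjusted p under 0.05, beside 3.6% of all genes with a higher mean. Itga1, whose integrin binds type IV collagen, was at 0.18 (SE 0.15) and Ddr1 at 0.03 (SE 0.10). Of 13 proteases and inhibitors of collagen turnover, 9 were tested, with a median of 0.09, no call by either test and none with an unadjusted p under 0.05. Timp1, an inhibitor of metalloproteinases, read 7.32, 7.53, 10.84 and 7.19 on the Mrp4-null-labelled arrays and 7.16, 7.09, 7.10 and 7.21 on the WT arrays, so its log2 fold change of 1.08 (SE 0.73) came from null 3. Mmp2, which cuts type IV collagen, was at -0.36 (SE 0.21) and Timp3, an inhibitor held in Bruch's membrane, at 0.26 (SE 0.19).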

How the data were processed

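Retinal RNA of 4 samples labelled Mrp4-null and 4 WT samples was measured on 8 one-color Agilent SurePrint G3 mouse arrays. The authors deposited the scanner output of Agilent Feature Extraction 11.0.1.1, in which the processed signal intensity of each spot is background-subtracted and detrended within the array but not normalized between arrays. A deposited table of values for the series held the mean processed intensity of each probe, equal within 0.1% in 100% of values, with column medians of 60.2 to 86.3. Precision is set by the number of arrays.

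Control spots and the 78 to 143 outlier spots per array were left out, and the log2 intensity was averaged per probe. The 59305 spots other than controls represented 56605 probes, of which between 37342 and 39581 per array were well above background. Probes that stood well above background on each measured array of 1 genotype or both were retained, given 3 or more measured arrays in that genotype and 2 or more in the other, and values were quantile normalized, as in the study's methods. Names for 32994 probes, chromosomes, gene order and promoter windows came from RefSeq tables of GRCm38.p6, and no other coordinates are given because the array design uses an older build.

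Genotypes were compared over all 37085 retained probes with limma 3.58.1 in R 4.3.3 (lmFit and eBayes, genotype as the only term, Benjamini-Hochberg adjustment), with a call at 1.5-fold or more and p under 0.05 after adjustment. The LPE test was written for this work from its description, with bins of 0.01 of the values and a spline of 10 degrees of freedom, and the procedures were tested on simulated data. Genes named are those called by limma or LPE, with an unadjusted p under 0.05, with groups that do not overlap or with a fold change of at least 1.5, the collagens best known in eye tissue, and the defining members of the lists. Neighbours of Col4a1 and Col4a2 were named after their values were seen. The members, classes, lists and rule were chosen with earlier results of these data known. The alternatives were a 75th percentile shift, cyclic loess, normexp with an offset of 50, the deposited table, no filter on dim probes, detection on all 8 arrays, outlier spots kept, LPE, robust variances with an intensity trend, a block on the sample number, and each array left out.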

Additional observations from a re-analysis of the deposited data

Results flagged for a closer look

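In 98 groups of 4 arrays examined, 72 of them of collagen genes, 3 had 1 array far from the other 3, by a gap that takes up most of the range of the group (its share is the ratio given below), which chance gives in about 1 of 20 groups. For Col1a1, WT 1 read 4.93 while the other WT arrays read 5.44 to 5.51 (ratio 0.873). For Timp1, null 3 read 10.84 while the other arrays labelled Mrp4-null read 7.19 to 7.53 (ratio 0.908). For Gfap, the astrocyte marker, null 3 read 9.05 while the others of its group read 7.29 to 7.56 (ratio 0.848).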

How the results depend on the processing

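The count of collagen probes called was 2 and remained 2, with Col4a1 and Col4a2, under the 75th percentile shift, cyclic loess, the deposited table, no filter on dim probes, detection on all 8 arrays, outlier spots kept, and the intensity trend. It was 1 with normexp (Col4a1; Col4a2 at 0.58 lay under the fold threshold), 1 with the adjusted LPE test (Col19a1), 7 with the unadjusted LPE test and 1 to 2 with 1 array left out. With the sample number as a replicate block it was 0, with adjusted p of 0.141 for Col4a1 and 0.134 for Col4a2, and calls over all probes fell from 202 to 71. Same-numbered arrays had correlations of -0.29, -0.69, 0.03 and 0.41, so the numbers do not pair the samples. Calls over all probes were also under 202 by over 1.5 times without WT 2 (131), WT 3 (129) and WT 4 (117).

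With 1 array left out, the median log2 fold change was 0.46 to 0.70 for the basement membrane class, 0.027 to 0.27 for the fibrillar class, 0.025 to 0.16 for the vitreous or ciliary class, -0.026 to 0.18 for type VI, below 0 without WT 4, and -0.056 to 0.062 for the transmembrane class, below 0 without null 1, null 2, null 3 or WT 4. The count of genes with an unadjusted p under 0.05 and a higher mean was 7 to 14 with 1 array left out and 11 to 15 under the other alternatives, a count examined after the data were seen. Of 647 comparisons of a single gene with an alternative, 639 stayed on the same side of the threshold, 7 lost a call, 1 gained one and 0 called genes changed direction. All 7 losses were of Col4a1 and Col4a2, the 2 genes called, each compared under 18 alternatives. The other genes had no call to lose, so their comparisons could only stay uncalled or gain a call. The 15 genes whose sign turned under some alternative all lay within 1 SE of 0. With 4 arrays per genotype, Col19a1, Col4a3, Col1a2 and Col17a1 had fitted changes of at least 1.5-fold with SEs of 0.20 to 0.36 and no limma call. Of these, Col19a1 was called by the adjusted LPE test. The size of change that can be detected in genes with such a spread was not tested.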

Other observations

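The lens genes of the marker list had values opposite in sign to most collagens. All 10 tested had a lower mean on the Mrp4-null-labelled arrays, with a median log2 fold change of -1.47, and 3 of them, Bfsp1, Bfsp2 and Crygs, had an unadjusted p under 0.05 in limma, beside 3% of all genes with a lower mean, with none called, whereas the adjusted LPE test called all 10, beside 0.684% of all genes. Among them, Mip was well above background on 4 WT arrays and on 2 arrays labelled Mrp4-null. It was thus retained only through the genotype in which it was higher, and its lower mean and LPE call are not independent of that filter. The mean over the 10 was lowest on null 2 (6.35) and highest on WT 2 (10.46). The 6 pigment epithelium genes tested had means of 8.38 to 8.86 on the Mrp4-null-labelled arrays and 8.20 to 8.79 on the WT arrays. Of the 5 Muller glia genes, Aqp4, their water channel, was at -0.39 (SE 0.11, limma, adjusted p = 0.362). All its arrays labelled Mrp4-null lay below all WT arrays, as in 438 of the 16093 genes tested. Glul, Kcnj10, Rlbp1 and Slc1a3 stood at 0.04, 0.03, -0.05 and -0.07. The 2 astrocyte genes had means of 6.45 to 7.05 and 5.93 to 6.50, and the 2 skeletal muscle genes tested 6.60 to 6.87 and 6.65 to 6.99. The part of these cell types in the collagen values was not tested.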
